A study of Mus musculus with 48 samples.

Results

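The MHC class II antigen-presentation genes of B16-D5 melanoma tumors were followed through 16 treatment conditions. The set was chosen by gene name, with earlier results of these data known. It holds 7 of the 55450 genes counted: the transactivator Ciita, the class II chains H2-Aa, H2-Ab1 and H2-Eb1, the invariant chain Cd74, and the peptide-loading chains H2-DMa and H2-DMb1. All 7 passed the filter on low counts in both experiments. Each of the 48 libraries was made from bulk tumor RNA of 1 animal, with 3 animals per condition. B16-D5 is a subclone of the B16 mouse melanoma line, and it was grown under the skin of the flank from 8 days before treatment. C57BL/6J and iNOS KO mice arrived at 4 weeks of age and were housed for 2 weeks. iNOS KO mice lack inducible nitric oxide synthase (the Nos2 gene) in the host, while the implanted melanoma cells keep it. Mice were left untreated, or received 250 µg of control IgG or of anti-PD-1 antibody on days 0 and 3. Tumors taken at 6 h and day 1 came before the second dose, and whether day 3 tumors did is not stated.

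The first experiment had 30 tumors, all in wild-type (WT) mice: untreated tumors at 0 h, and untreated, IgG and anti-PD-1 tumors at 6 h, day 1 and day 3. The second had 18 tumors at day 7: untreated, IgG and anti-PD-1 tumors from mice labelled WT and from mice labelled iNOS KO. The KO label rests on 9 sample titles, because WT is entered as the genotype of all 48 samples. Nos2 counts cannot settle it, since the implanted tumor cells carry the gene whatever the host. Levels are given as CPM, counts scaled to a common library size. Nos2 ranged from 0.695 to 41 CPM in the first experiment and from 1.15 to 7.28 CPM at day 7. The experiments were normalized and tested separately, and no value is compared between them.

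MHC class II molecules carry peptides from ingested proteins to the cell surface, where CD4+ T cells read them. Dendritic cells, macrophages and B cells make them constitutively or after activation, and most other cells make them only after exposure to interferon-γ. CIITA is a coactivator that does not itself bind DNA. It docks on a complex assembled at class II promoters, in which RFX proteins hold the X box and NF-Y holds the Y box, and interferon-γ acts by switching on Ciita, in part through IRF1. H2-Aa and H2-Ab1 encode the α and β chains of I-A. H2-Eb1 encodes the β chain of I-E, whose α chain C57BL/6 mice do not express. CD74 fills the peptide groove until the molecule reaches the endosome, and H2-M, the product of H2-DMa and H2-DMb1, then exchanges the remaining fragment for antigenic peptides.

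The promoter sequences through which CIITA acts on class II genes are shown first. RefSeq promoter windows on GRCm38.p6, from 250 bases before to 50 bases after a start site, were found for 4 members. The windows were searched on both strands for the X box letters GNAAC followed by the Y box letters ATTGG, with 25 to 40 bases between their starts. These letters were chosen after the sequences had been looked at. In 3 of the 4 members the letters were found, compared with 878 of 32851 windows of all genes (2.67%). ATTGG alone was in 12289 windows (37.4%). The I-A α and I-E β promoters are printed below 5′ to 3′ with the X and Y letters in capitals.
H2-Aa: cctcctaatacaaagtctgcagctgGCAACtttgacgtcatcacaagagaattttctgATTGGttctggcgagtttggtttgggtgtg
H2-Eb1: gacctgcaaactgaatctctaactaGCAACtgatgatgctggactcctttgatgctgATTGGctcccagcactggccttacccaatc
The H2-Aa stretch is chr17:34287842-34287929 on the minus strand, with the X letters 81 bases and the Y letters 48 bases before the start site. The H2-Eb1 stretch is chr17:34305751-34305837 on the plus strand, with the X letters 91 bases and the Y letters 59 bases before the start site. The spacing between the starts of the X and Y letters was 33 bases in H2-Aa and 32 bases in H2-Eb1. In H2-DMb1 they lay 94 and 61 bases before the start site, again 33 bases apart. Neither of the 2 H2-DMa windows held the pair. Among the other class II genes, H2-Ob, H2-Oa and H2-Eb2 held it and H2-DMb2 did not. A match describes letters and is not evidence that a factor binds there.

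In the GENCODE vM21 annotation (mm10, the GRCm38 assembly), 5 of the 7 genes lie in the MHC on chromosome 17. H2-DMa spans chr17:34119541-34139101 (plus strand), H2-DMb1 chr17:34153072-34160230 (plus), H2-Ab1 chr17:34257689-34269419 (plus), H2-Aa chr17:34282744-34287823 (minus) and H2-Eb1 chr17:34305867-34316674 (plus). Ciita lies outside the MHC at chr16:10480059-10528418 (plus), and Cd74 lies on chromosome 18. Ciita overlaps Dexi on the opposite strand, H2-DMa overlaps Brd2, H2-Eb1 overlaps the antisense gene Gm20513 and Cd74 holds the microRNA gene Mir5107. The libraries keep strand, but the strand setting of the counting is not given in the sources used here. H2-DMb1 and H2-DMb2, and H2-Eb1 and H2-Eb2, are close paralogs whose reads the counting may have divided, so these values carry that uncertainty.

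Library totals ranged from 25574203 to 47687872 counts in the first experiment and from 11625862 to 40959309 at day 7. At these depths 3 counts correspond to 0.0688 to 0.197 CPM, and the lowest count of any member in any library was 81. Melanocyte markers summed to 9396 to 20660 CPM over all tumors, and the pan-leukocyte gene Ptprc ranged from 11.1 to 205 CPM. All 10 macrophage markers were detected in every library. B cell markers summed to 3.28 to 13.2 CPM in the first experiment and 8.32 to 50.7 CPM at day 7. Cd79a, at a median of 3.94 and 6.83 CPM, was detected in every library, and Ms4a1 was at 0 counts in 12 of 30 and 11 of 18. Keratinocyte markers reached 3340 CPM in 1 tumor of the first experiment. Skeletal muscle markers summed to 1.94 to 3864 CPM in that experiment, and to 570 to 3864 CPM in its untreated 0 h tumors. At day 7, 3 libraries stood apart in the counts that fell on 1781 sensory receptor genes (smell, pheromone and taste): anti-PD-1 WT replicates 3 and 4 (2976 and 1235 CPM) and untreated KO replicate 1 (925 CPM), against 14.2 to 248 CPM in the other day 7 libraries. In bulk tumors, fewer class II-expressing cells and less class II RNA per cell cannot be told apart.

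Levels of different genes were compared as CPM per kb of exon. Cd74 was the most abundant member, with a median of 512 CPM per kb in the first experiment and 208 at day 7. H2-Ab1 followed at 82.6 and 28.1, H2-Eb1 at 55.1 and 17.3, and H2-Aa at 19.6 and 7.86 CPM per kb. The peptide-editor chains were lower, H2-DMb1 at 12.6 and 4.95 and H2-DMa at 10.6 and 4.57 CPM per kb. Ciita was the least abundant, at 2.13 and 0.973 CPM per kb.

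This order held in 26 of 30 tumors of the first experiment, and the other 4 differed only by an exchange of H2-DMa and H2-DMb1. At day 7 it held in 11 of 18 tumors, and 3 more showed that same exchange. In the remaining 4 day 7 tumors H2-Aa ranked below at least 1 of the H2-M chains. H2-DMa and H2-DMb1 were thus the neighbors whose order was least fixed, with a median H2-DMb1 to H2-DMa ratio per kb of 1.19 (0.830 to 1.68) in the first experiment and 1.14 (0.837 to 2.92) at day 7. Cd74, H2-Ab1 and H2-Eb1 came first in that order, and Ciita last, in all 48 tumors.

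Ratios between members differed in how steady they were across tumors. For the I-A pair, H2-Aa per kb was 0.262 of H2-Ab1 (range 0.151 to 0.370) in the first experiment and 0.303 (0.222 to 0.429) at day 7. H2-Eb1 per kb was 0.668 of H2-Ab1 (range 0.519 to 0.816) in the first experiment and 0.634 (0.463 to 0.916) at day 7, although I-E protein cannot form without its α chain. The I-E α pseudogene H2-Ea-ps had 0 counts in 25 of 30 and 13 of 18 libraries. Cd74 was 6.80 times H2-Ab1 per kb (4.27 to 8.66) in the first experiment and 7.24 times (5.72 to 9.08) at day 7. The ratio of Ciita to H2-Ab1 per kb spanned the widest range of these, with a median of 0.0249 (0.0136 to 0.0637) in the first experiment and 0.0366 (0.0219 to 0.173) at day 7.

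**Figure D1:**
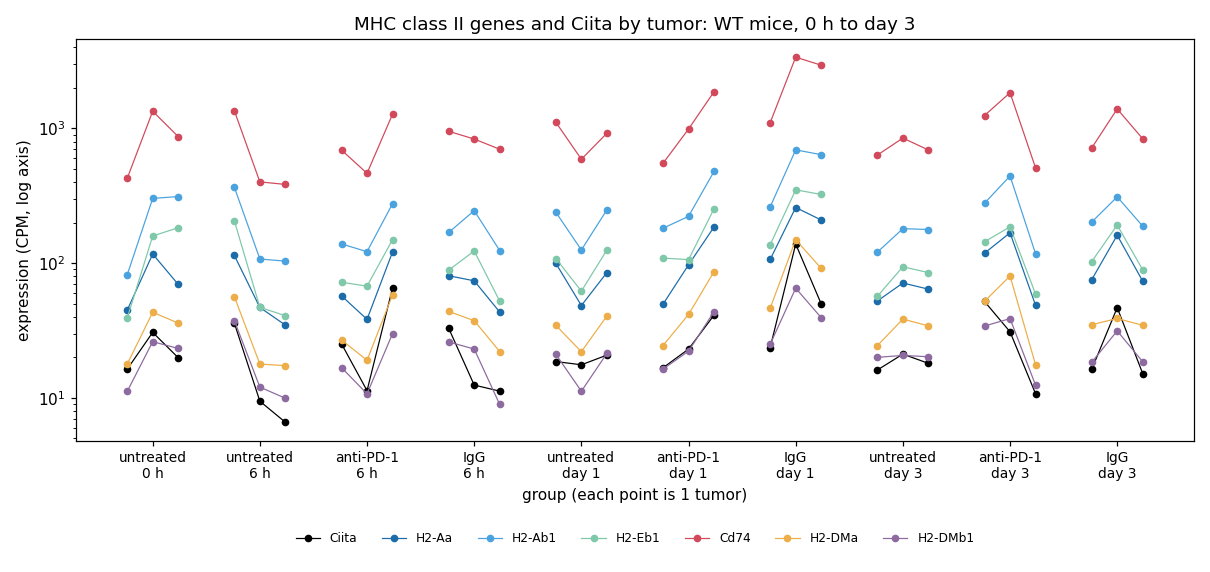
CPM of the 7 genes (log axis) in the first experiment, 1 point per tumor, with lines joining the tumors of a group only to show that the genes move together. IgG day 1 replicate 4 was the highest tumor for every gene, with 139 CPM of Ciita and 3387 CPM of Cd74.

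In the first experiment the untreated tumors were the reference for time. Ciita in untreated tumors was 16.3, 19.8 and 30.6 CPM at 0 h, 6.58, 9.42 and 35.8 CPM at 6 h, 17.6, 18.6 and 20.7 CPM at day 1, and 16.1, 18 and 21.1 CPM at day 3. The spread was wide at 6 h, where 1 tumor (replicate 1) held the highest level of all 7 genes in its group, and narrow at days 1 and 3. H2-Ab1 was 81.7, 302 and 312 CPM at 0 h and 120.5, 178 and 180.3 CPM at day 3. Against 0 h, the members' log2 fold changes lay between −0.38 and −0.03 at 6 h, between −0.37 and 0.01 at day 1 and between −0.69 and 0.01 at day 3. None was called by edgeR's quasi-likelihood test, where called means a Benjamini-Hochberg adjusted p under 0.05, and neither was any other gene (0.0% in each of these comparisons). The share of all genes below 0 was 51.7% at 6 h against 0 h. These comparisons share the 0 h tumors.

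At 6 h the question was the early effect of PD-1 blockade. Ciita was 11.3, 25.1 and 65.4 CPM after anti-PD-1, 11.2, 12.4 and 32.8 CPM after IgG and 6.58, 9.42 and 35.8 CPM in untreated tumors. The 3 groups overlapped. Ciita had a log2 fold change of 0.85 (SE 0.68) against IgG and 0.98 (SE 0.68) against untreated, both with an edgeR adjusted p of 1. Without anti-PD-1 6 h replicate 5, the tumor with 65.4 CPM, the difference from IgG was −0.045. The other members had values nearer 0. H2-Ab1 was 122, 139 and 276 CPM after anti-PD-1 and 124, 169 and 245 CPM after IgG, and the median log2 fold change of the 7 genes was 0.01 against IgG and 0.15 against untreated tumors.

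The interferon-γ pathway was measured through 8 genes, the cytokine, its receptor chains and downstream signaling genes. In anti-PD-1 against untreated tumors at 6 h, 7 of the 8 had log2 fold changes above 0 (background 45.3%), with a median of 0.68, and 0 were called (0.0% of all genes). Ifng, Irf1 and Socs1 each had an unadjusted edgeR p under 0.05 and a value above 0 (background 2.13%). Against IgG, the antibody control, 6 of the 8 were above 0 (background 42.9%) with a median of 0.30, and 0 of them had an unadjusted p under 0.05. Counts on Ifng itself were 0, 62 and 130 after anti-PD-1 and 0, 2 and 22 after IgG, and the tumor with 130 was replicate 5, the one highest in Ciita. Macrophage markers summed to 384 to 630.4 CPM after anti-PD-1, 347 to 635 CPM after IgG and 322 to 644 CPM in untreated tumors.

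At day 1 the IgG tumors held the most class II RNA of the first experiment. Ciita was 23.6, 49.7 and 139 CPM in IgG tumors and 17.6, 18.6 and 20.7 CPM in untreated tumors, so every IgG tumor exceeded every untreated one. H2-Ab1 was 262, 639 and 693 CPM after IgG and 125, 239 and 248 CPM in untreated tumors, again without overlap. Cd74 was 1105, 2949 and 3387 CPM after IgG and 591, 922 and 1112 CPM in untreated tumors. For Cd74 alone the lowest IgG tumor fell just under the highest untreated tumor.

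The log2 fold change between IgG and untreated day 1 tumors was 1.90 (SE 0.69) for Ciita, 1.3 (SE 0.53) for H2-Aa, 1.38 (SE 0.55) for H2-Ab1 and 1.46 (SE 0.59) for H2-Eb1. It was 1.5 (SE 0.54) for Cd74, 1.57 (SE 0.55) for H2-DMa and 1.27 (SE 0.52) for H2-DMb1. The median over the members was 1.46, where the median over all genes was 0.04. All 7 had an unadjusted p under 0.05, on a background of 4.01% of all genes higher at that level. For 6 of 7 the groups did not overlap, with the background at 6.26%, and all 7 were above 0, with the background at 52.9%. None was called, at an edgeR adjusted p of 0.859 for each, and 0.0% of genes were. With no filter on low counts, where 49294 genes were tested, 4 members (Ciita, H2-Ab1, Cd74 and H2-DMa) were called with edgeR adjusted p from 0.0135 to 0.0436 and 0.416% of genes were called higher. Without IgG replicate 4 the median was 1.09. That tumor, the highest for all 7 genes, had 287 Ifng counts where the other IgG tumors had 2 and 7.

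Markers of other cell types were set beside these groups, where 52.9% of all genes had log2 fold changes above 0. The macrophage, T cell and B cell sums overlapped between IgG and untreated tumors. Macrophage markers summed to 598 to 1219 CPM after IgG and 434 to 852 CPM in untreated day 1 tumors, with replicate 4 the lowest of the IgG tumors, and 10 of 10 had log2 fold changes above 0 (median 0.73). Dendritic cell markers summed to 87.2 to 159 CPM and 40.2 to 78.2 CPM, with 8 of 9 above 0 (median 0.93). T cell markers were at 15.3 to 63.9 CPM and 3.56 to 23 CPM, with 9 of 9 above 0 (median 1.68). Keratinocyte markers reached 528 CPM and skeletal muscle markers 2924 CPM in 1 IgG tumor (replicate 6), and at most 2.48 and 17.8 CPM in untreated ones. B cell markers summed to 7.99 to 11.3 CPM and 3.28 to 9.92 CPM, with 8 of 10 above 0 (median 0.86). No gene of these lists was called, and their part in the class II difference was not tested. Of the 17 other class II genes tested (of 18 listed), 13 were above 0 with a median of 0.42, and of the interferon-γ genes 7 of 8 with a median of 0.87.

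Mean levels of the 7 genes in anti-PD-1 tumors at day 1 lay between those of the other groups. Ciita was 16.7, 23 and 41.1 CPM, H2-Ab1 182, 222 and 480.0 CPM and Cd74 551, 990.0 and 1876 CPM. Each of these ranges overlapped the IgG range and the untreated range. The lowest anti-PD-1 tumor was under the lowest untreated one for Ciita (17.6 CPM) and for Cd74 (591 CPM). The difference from untreated tumors was not tested. Against IgG the log2 fold change was −1.39 (SE 0.68) for Ciita and −1.12 (SE 0.54) for Cd74, and the median of the 7 was −0.85 against a median of −0.01 over all genes. All 7 were below 0 (background 51.1%). Only Cd74 had an unadjusted p under 0.05 (background 2.53%), at 0.0462 with an edgeR adjusted p of 1, and none was called (0.0% of genes). Macrophage markers had a median log2 fold change of −0.08 and dendritic cell markers of −0.62 in that comparison. It shares the IgG tumors with the comparison above, and without IgG replicate 4 the median over the members was −0.51.

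At day 3 the differences were smaller. Ciita was 10.7, 30.9 and 51.9 CPM after anti-PD-1, 15.1, 16.2 and 46.7 CPM after IgG and 16.1, 18 and 21.1 CPM in untreated tumors. H2-Ab1 was 117, 279 and 444 CPM, 188, 202 and 311 CPM, and 120.5, 178 and 180.3 CPM in the same order of groups. The lowest IgG tumor thus sat above the highest untreated one for H2-Ab1, and also for H2-Aa, where IgG tumors were at 73.4, 75.3 and 161 CPM and untreated ones at 52.3, 64.0 and 71.2 CPM. These 2 of 7 genes compare with 6.53% of all genes that were higher without overlap. The median log2 fold change of the members was 0.50 for IgG against untreated and 0.26 for anti-PD-1 against IgG, with all 7 above 0 in each (background 46.2% and 50.2%), and 0 were called (0.0% of genes). The change in the anti-PD-1 effect from 6 h to day 3, tested as an interaction, had a median of 0.27 and an edgeR adjusted p of 1 for each member.

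**Figure D2:**
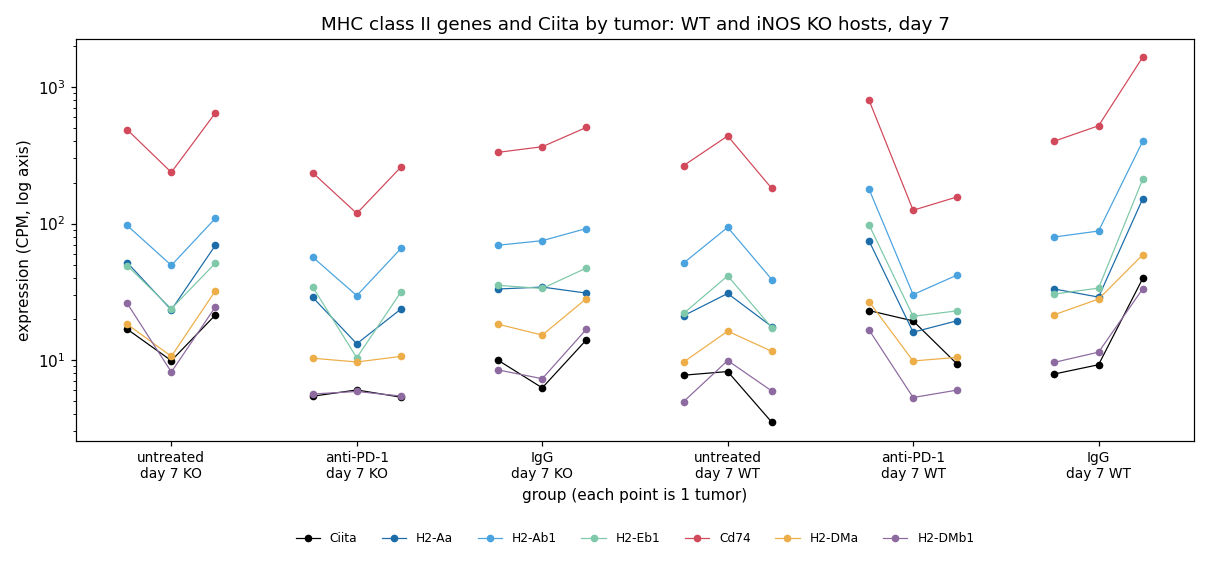
CPM of the 7 genes (log axis) at day 7, 1 point per tumor, with lines joining the tumors of a group. IgG WT replicate 3 was the highest tumor for every gene, and the 3 anti-PD-1 KO tumors lay within 5.34 to 6.04 CPM for Ciita.

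At day 7 in WT mice, a single IgG tumor set the top of every gene. Ciita was 3.5, 7.74 and 8.23 CPM in untreated tumors, 7.90, 9.24 and 39.6 CPM after IgG and 9.32, 19.4 and 23.1 CPM after anti-PD-1. H2-Ab1 was 38.9, 51.4 and 93.8 CPM in untreated tumors, 79.8, 88.2 and 401 CPM after IgG and 30.2, 42 and 179 CPM after anti-PD-1. Cd74 was 181, 266 and 439 CPM, 402, 521 and 1660.0 CPM, and 125, 157 and 805 CPM in that order. H2-DMa, the α chain of the peptide editor, was the 1 gene whose IgG tumors (21.5, 28 and 59.0 CPM) all exceeded the untreated ones (9.66, 11.6 and 16.3 CPM).

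Between IgG and untreated WT tumors the log2 fold changes ran from 1.38 (SE 0.51) for H2-DMb1 to 1.77 (SE 0.66) for H2-Eb1, with Ciita at 1.54 (SE 0.50) and H2-DMa at 1.53 (SE 0.42). Their median was 1.54 and that of all genes 0.14. All 7 were above 0 (background 58.9%) with an unadjusted p under 0.05 (background 5.54%), and 1 of 7 did not overlap (background 6.79%). None was called, with an edgeR adjusted p of 0.566 for each (0.0% of genes). With no filter, which tested 51257 genes, all 7 were called with edgeR adjusted p from 1.216e-10 to 2.916e-04 and 1.15% of genes were called higher. The fold changes were close to those above but their standard errors were smaller, with H2-Eb1 at 1.72 (SE 0.23). The size of the difference rests on IgG replicate 3: without it the median was 0.42. That tumor also held the most macrophage and dendritic cell marker RNA of its group, whose sums were 445.5 to 1573 CPM and 32.8 to 167 CPM, against 321 to 682 CPM and 22.2 to 42.7 CPM in untreated tumors. Their part was not tested.

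Between anti-PD-1 and IgG WT tumors the value for Ciita was nearer 0 than those of the genes it controls. Log2 fold changes were −0.13 for Ciita, smaller than its SE, and −0.95 (SE 0.57) for H2-Aa, −1.17 (SE 0.60) for H2-Ab1, −1.25 (SE 0.60) for Cd74 and −1.19 (SE 0.42) for H2-DMa. All 7 were below 0 (background 31.3%) where the median over all genes was 0.68. H2-DMa alone had an unadjusted p under 0.05 (background 5.75%), at 0.01 with an edgeR adjusted p of 0.305, and none was called (adjusted p from 0.305 to 0.868, 0.0% of genes). Macrophage markers had 0 of 10 above 0 with a median of −1.15, and dendritic cell markers 7 of 9 above 0 with a median of 0.52.

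Single tumors decided this comparison. Without IgG replicate 3 the median was 0.02. Without anti-PD-1 replicate 2, the high tumor of its group, 4 members were called: H2-Aa (−1.89), H2-Ab1 (−2.28), Cd74 (−2.50) and H2-DMa (−1.73), with edgeR adjusted p from 0.0130 to 0.0426, where 4.23% of genes were called lower. With no filter, 6 members (all but Ciita) were called, where 0.925% of genes were called lower. The anti-PD-1 group includes 2 of the 3 libraries with high sensory receptor counts, and without the 3 libraries, which leaves 1 anti-PD-1 WT tumor that is assumed to vary like the rest, the median was −0.04.

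The share of each gene's level that such counts could make up was largest for Ciita, which has the greatest exonic length and the lowest level per kb. If each gene gained counts per kb at the rate of the receptor genes, that rate would equal 4.93 of the 19.4 CPM of Ciita in anti-PD-1 WT replicate 3 (25.5%). It would equal 2.04 of 9.32 CPM in replicate 4 (21.9%) and 1.53 of 16.8 CPM in untreated KO replicate 1. The median over all day 7 libraries was 0.705% for Ciita. The highest share in any day 7 library was 18.1% for H2-DMa, 16.3% for H2-DMb1, 12.3% for H2-Aa, 4.8% for H2-Eb1, 4.4% for H2-Ab1 and 0.692% for Cd74. A uniform rate per kb was assumed, and the part of these counts in the values was not tested. This calculation was added after the data had been seen and is a description.

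In mice labelled iNOS KO, anti-PD-1 tumors had the lowest mean level of each of the 7 genes. Ciita was 5.34, 5.43 and 6.04 CPM after anti-PD-1, 6.25, 9.96 and 14.1 CPM after IgG and 9.89, 16.8 and 21.4 CPM in untreated tumors. For Ciita the anti-PD-1 tumors were thus below all tumors of the other 2 groups, with 6.04 CPM just under the 6.25 CPM of the lowest IgG tumor. H2-DMb1 was 5.44, 5.64 and 5.88 CPM after anti-PD-1, 7.29, 8.46 and 16.8 CPM after IgG and 8.16, 24.6 and 26 CPM in untreated tumors. H2-Aa was 13.2, 23.6 and 28.8 CPM, 30.9, 33.1 and 34.3 CPM, and 23.3, 51.8 and 69.5 CPM in the same order. Anti-PD-1 and untreated tumors overlapped for H2-Aa, H2-Ab1 (29.65 to 65.7 and 49.5 to 109.5 CPM), H2-Eb1 (10.4 to 34.4 and 23.8 to 51.4 CPM) and Cd74 (119 to 259.5 and 237 to 649.5 CPM). H2-DMa, at most 10.63 CPM after anti-PD-1 and at least 10.64 CPM in untreated tumors, did not overlap. This difference from untreated KO tumors was not tested, and no share over all genes was counted for it.

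The log2 fold change between anti-PD-1 and IgG in KO tumors was −0.85 (SE 0.50) for Ciita, −0.97 (SE 0.60) for Cd74, −1.01 (SE 0.42) for H2-DMa and −0.94 (SE 0.50) for H2-DMb1. The median was −0.85, with 0.00 over all genes, and all 7 were below 0 (background 43.9%). For 6 of 7, all but H2-Eb1, the groups did not overlap, where 3.77% of all genes were lower in that way. H2-DMa had an unadjusted p of 0.0253 (background 1.09% under 0.05), and none was called, at an edgeR adjusted p of 1 for each (0.0% of genes). With no filter H2-DMa was called at an edgeR adjusted p of 0.0452, where 0.109% of genes were called lower. Macrophage markers (163 to 540.5 CPM after anti-PD-1, 341 to 639.6 CPM after IgG) had a median of −0.36. Dendritic cell markers summed to 19.2 to 34.2 CPM after anti-PD-1 and 36 to 42.5 CPM after IgG. No background share was counted for such sums, no gene of these lists was called, and their part was not tested.

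IgG and untreated KO tumors differed less, with log2 fold changes from −0.85 for H2-DMb1 to 0.01, a median of −0.19 and an edgeR adjusted p from 0.324 to 0.996. In that comparison 0.188% of all genes were called, none of them a member.

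The anti-PD-1 effect was compared between genotypes by an interaction term. Its log2 value, KO minus WT, was −0.72 (SE 0.70) for Ciita and 0.54 (SE 0.84) for H2-Ab1, with a median of 0.27 and an edgeR adjusted p from 0.836 to 1 (0.0% of genes called). The median was −0.80 without IgG WT replicate 3 and 1.31 without anti-PD-1 WT replicate 2. A difference between the genotypes in the response of these genes to anti-PD-1 was therefore not resolved in either direction.

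The genotypes were also compared within each treatment. In untreated mice Ciita was 9.89, 16.8 and 21.4 CPM in KO and 3.5, 7.74 and 8.23 CPM in WT mice, without overlap. H2-DMb1 was 8.16, 24.6 and 26 CPM in KO and 4.95, 5.93 and 9.91 CPM in WT mice, with 1 KO tumor inside the WT range. Log2 fold changes were 1.31 (SE 0.50) for Ciita, 1.5 (SE 0.51) for H2-DMb1, 1.06 (SE 0.57) for H2-Aa and 0.63 for Cd74. The median of the 7 was 0.71, and that of all genes 0.49. All 7 were above 0 (background 67.1%), 2 had an unadjusted p under 0.05 (background 13.1%) and 1 did not overlap (background 9.73%). None was called (edgeR adjusted p from 0.25 to 0.652), where 0.587% of all genes were.

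A fit of only these 2 groups called Ciita, H2-Aa and H2-DMb1, with edgeR adjusted p from 0.0181 to 0.0468 and 1.87% of genes called higher. With no filter the same 3 genes were called, where 2.21% of genes were called higher. Both fits include untreated KO replicate 1, with 925 CPM on sensory receptor genes. Macrophage markers moved the other way, with 1 of 10 above 0 and a median of −0.32, while 8 of 9 dendritic cell markers were above 0 with a median of 0.61. B cell markers were at 8.57 to 24.7 CPM in KO and 8.32 to 10.5 CPM in WT tumors, 9 of 10 of them above 0 (background 67.1%). The 24.7 CPM was in untreated KO replicate 1, 1 of the 3 libraries with high sensory receptor counts.

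Irf1, the interferon regulatory factor that activates Ciita, was the 1 gene of the 25 tested class II and interferon-γ genes to pass the test in any comparison. Between untreated KO and WT tumors 0.587% of all genes were called. The median log2 fold change of all genes there was 0.49, with 67.1% of them above 0. Irf1 was higher in the KO tumors, with a log2 fold change of 1.49 (SE 0.33) and an edgeR adjusted p of 0.0410. The call was lost without untreated KO replicate 4 (0.99, edgeR adjusted p = 0.174), without any 1 of the 3 WT tumors (1.37 to 1.62, edgeR adjusted p from 0.111 to 0.287), with a replicate block (1.37, adjusted p = 0.0922) and with the sensory receptor rate as a covariate (1.70, adjusted p = 0.0810). The other alternatives gave edgeR or DESeq2 adjusted p from 1.894e-07 to 0.0394.

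Among IgG tumors the direction was the opposite. The log2 fold change between KO and WT was −1.27 (SE 0.60) for H2-Ab1, −0.91 (SE 0.49) for Ciita and −1.10 at the median of the 7, where the median of all genes was −0.14. All 7 were below 0 (background 59.6%), H2-Ab1 had an unadjusted p of 0.047 (background 4.12% under 0.05) and none was called (edgeR adjusted p from 0.626 to 0.640, 0.0% of genes). With no filter 4 members (H2-Aa, H2-Ab1, H2-Eb1 and Cd74) were called, where 0.418% of genes were called lower. Without IgG WT replicate 3 the median was 0.08. Macrophage markers had 0 of 10 and dendritic cell markers 1 of 9 above 0, with medians of −0.73 and −0.62.

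Among anti-PD-1 tumors Ciita was 5.34, 5.43 and 6.04 CPM in KO and 9.32, 19.4 and 23.1 CPM in WT mice, and the groups did not overlap. Its log2 fold change was −1.62 (SE 0.51), with an edgeR p of 0.00445 and an adjusted p of 0.128. The other members ranged from −0.90 for H2-Eb1 to −0.63 for H2-DMa, and their groups overlapped. H2-Ab1, for example, was 29.6, 56.9 and 65.7 CPM in KO and 30.2, 42 and 179 CPM in WT tumors. The median of the 7 was −0.76, less far from 0 than the median of all genes at −0.91. All 7 were below 0 (background 67.6%), 1 had an unadjusted p under 0.05 (background 26.6%) and 1 did not overlap (background 17%), and no gene was called (0.0%).

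The Ciita difference was called under some alternatives. DESeq2 gave −1.70 with an adjusted p of 0.0340 (8.52% of genes called lower), and a fit of only these 2 groups gave −1.61 with an edgeR adjusted p of 0.0398 (1.87%). With no filter Ciita and H2-Eb1 were called (5.17% of genes called lower). Without the 3 libraries with high sensory receptor counts the value was −2.02 with an edgeR adjusted p of 0.512, from 1 WT tumor. Without anti-PD-1 WT replicate 2 it was −1.38, while H2-Ab1 turned to 0.46. Dendritic cell markers had 0 of 9 above 0, with a median of −0.99 where that of all genes was −0.91. T cell markers summed to 3.29 to 6.12 CPM in KO and 16.8 to 37.2 CPM in WT tumors. Macrophage markers overlapped, at 163 to 540.5 CPM in KO and 200 to 764 CPM in WT tumors. The part of these cell types, and that of the receptor counts, was not tested.

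**Figure D3:**
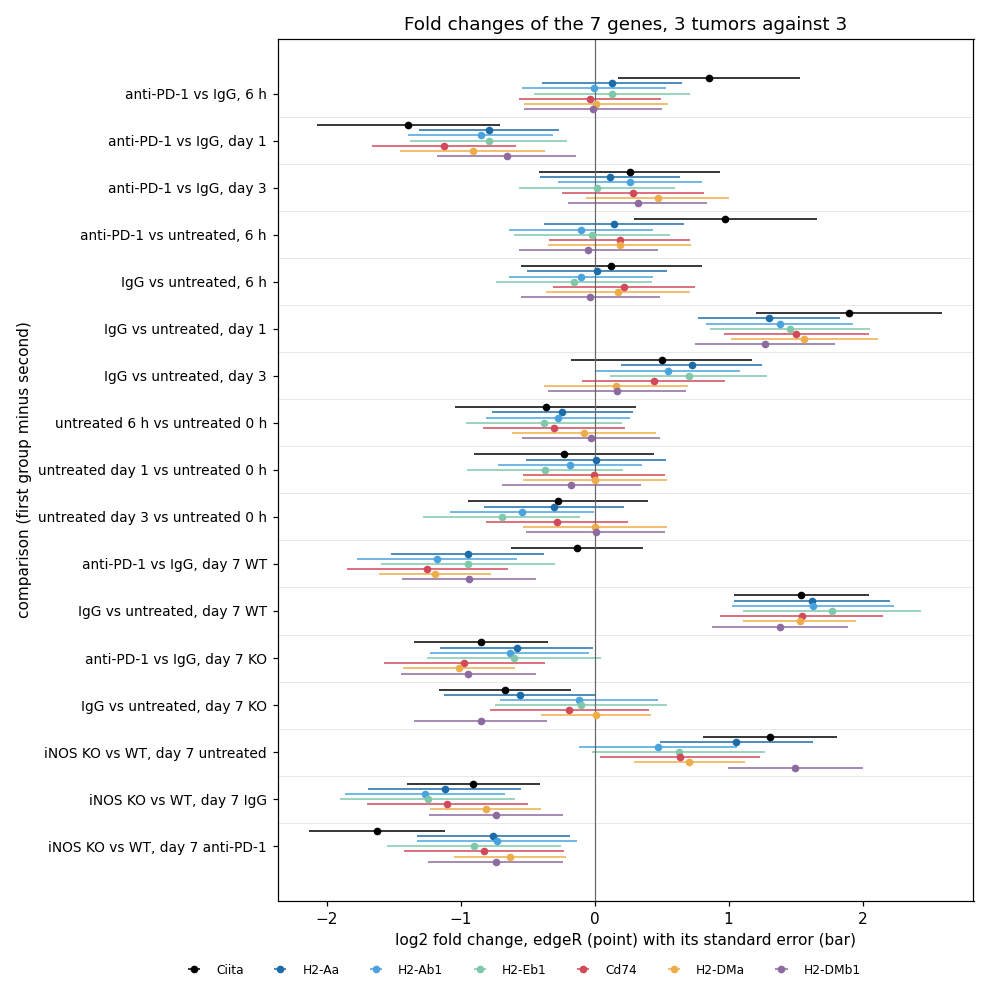
Log2 fold change (first group minus second) of the 7 genes in 17 comparisons, edgeR estimate with its standard error as a bar. The 7 genes lay close together, above 0 for IgG against untreated tumors at day 1 and day 7 WT, and Ciita lay apart from the others for anti-PD-1 at 6 h, in day 7 WT tumors and between genotypes after anti-PD-1.

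The SD of log2 CPM among the tumors of a group was larger than the SD of the group means, for every member in both experiments. The highest tumor exceeded the lowest by 21.1-fold for Ciita and by 7.30- to 8.98-fold for the other members in the first experiment, and by 6.11- to 20.3-fold over the 7 genes at day 7. Within groups the SD of log2 CPM of H2-Ab1 was 0.75 and 0.89 in the 2 experiments, and the SD of its group means was 0.49 and 0.54. For Ciita these were 0.90 and 0.71 within groups and 0.54 and 0.65 between group means. Each group mean averages several tumors, and averages vary less than single tumors even where groups do not differ. The order of the SDs therefore cannot show whether the groups differed.

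Over the 30 tumors of the first experiment, the 15 pairs without Ciita correlated with Pearson r of 0.917 to 0.986 and Spearman rho of 0.891 to 0.988. Over the 18 day 7 tumors r was 0.812 to 0.981 and rho 0.794 to 0.969. The 6 pairs with Ciita were looser, with r of 0.793 to 0.879 and 0.653 to 0.780, and rho of 0.790 to 0.882 and 0.577 to 0.672. Without the 2 tumors farthest from the median, r was 0.889 to 0.981 and 0.736 to 0.982 without Ciita, and 0.766 to 0.864 and 0.413 to 0.693 with it. After removal of group means r stayed at 0.888 to 0.984 and 0.831 to 0.986 without Ciita, and at 0.743 to 0.878 and 0.719 to 0.786 with it. Over all 42 pairs the Benjamini-Hochberg adjusted permutation p was at most 0.014. All values of a tumor come from 1 library and share its depth.

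**Figure D4:**
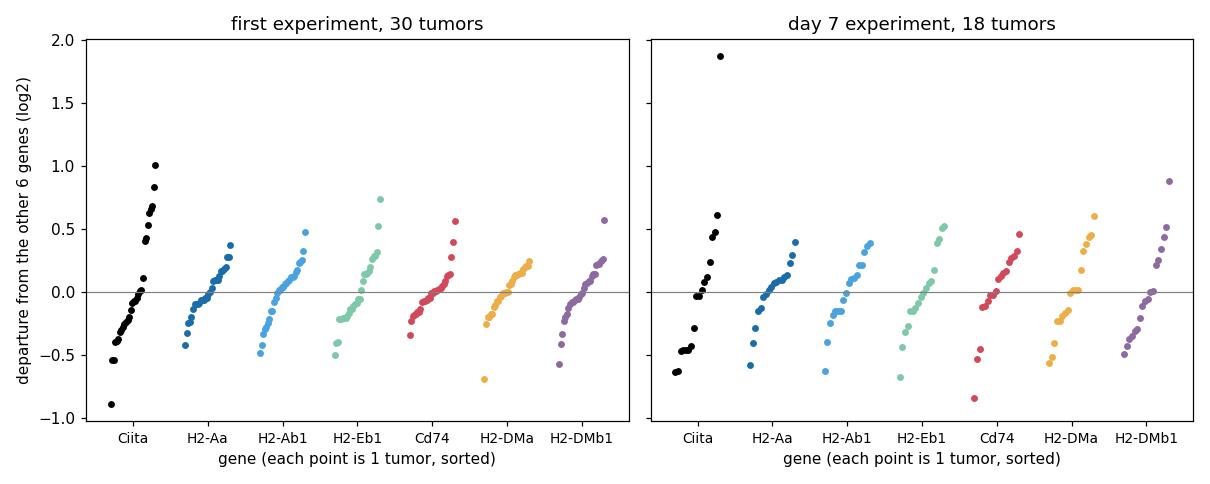
Departure of each gene from the mean of the other 6 in the same tumor (log2), 1 point per tumor sorted by value, in the first experiment and at day 7. Ciita departed most, with an SD of 0.45 and 0.61, and its highest point was anti-PD-1 WT replicate 3 at 1.87.

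The departure of each gene from the mean of the other 6 in the same tumor, after centering on its experiment, measured which member moved on its own. Its SD was 0.18 for H2-Aa and 0.23 for H2-Ab1 in the first experiment, 0.24 and 0.27 at day 7, and 0.45 and 0.61 for Ciita. In the first experiment Ciita departed most in anti-PD-1 6 h replicate 5 (1.01), the tumor with 130 Ifng counts. At day 7 it departed most in anti-PD-1 WT replicate 3 (1.87), the tumor with the most sensory receptor counts. H2-DMb1 departed by 0.89 in untreated KO replicate 1, another of the 3 libraries, and H2-Eb1 by 0.74 in untreated 0 h replicate 3.

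The members were then set beside Ifng and the cell type markers over the tumors of each experiment, in 16 relations on log2(CPM + 0.5) with permutation tests of 100000 draws, whose smallest p is 1e-05. H2-Ab1 followed Ciita with r = 0.79 and rho = 0.79 in the first experiment (adjusted permutation p = 3.2e-05 and 5.33e-05) and with r = 0.67 and rho = 0.59 at day 7 (0.00528 and 0.0242). Without the 2 farthest tumors r was 0.77 and 0.41, and within groups 0.74 and 0.73.

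Macrophage markers tracked H2-Ab1 in both experiments. In the first r was 0.79 and rho 0.83, r was 0.73 without the 2 farthest tumors and 0.71 within groups. At day 7 r was 0.89 and rho 0.78, r was 0.77 without the 2 farthest tumors and 0.91 within groups. The adjusted permutation p for r was 3.2e-05 in both, and for rho it was 5.33e-05 and 0.000613. Dendritic cell markers gave r = 0.84 and rho = 0.81 in the first experiment (permutation p as for macrophages), with 0.77 without the 2 farthest tumors and 0.84 within groups. At day 7 they gave r = 0.53 and rho = 0.58 (adjusted permutation p = 0.0387 and 0.0242), with 0.70 and 0.63.

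Melanocyte markers ran opposite to H2-Ab1 in the first experiment, with r = −0.67 and rho = −0.71 (adjusted permutation p = 0.00032 and 0.00016), −0.65 without the 2 farthest tumors and −0.60 within groups. At day 7 r was −0.30 (adjusted permutation p = 0.3). B cell markers gave r = 0.21 and −0.08 (adjusted permutation p = 0.334 and 0.733) and rho = 0.26 and 0.34 (0.195 in both). Without the 2 farthest tumors r was 0.33 and 0.29. At day 7 those 2 were anti-PD-1 WT replicate 3 and untreated KO replicate 1, both high in sensory receptor counts. T cell markers gave r = 0.33 and 0.20 (adjusted permutation p = 0.112 and 0.447) and rho = 0.32 and 0.34 (0.125 and 0.195). Without the 2 farthest tumors r was 0.15 and 0.51. Neither r nor rho over all tumors passed the test for either list.

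Ifng was set beside both Ciita and the class II chain. Ciita and Ifng gave r = 0.73 and rho = 0.64 in the first experiment (adjusted permutation p = 3.2e-05 and 0.000613), with 0.52 without the 2 farthest tumors and 0.73 within groups. At day 7 they gave r = 0.61 and rho = 0.52 (adjusted permutation p = 0.0145 and 0.0493), with 0.63 without the 2 farthest and 0.31 within groups. Ifng had at most 14 counts in any day 7 library. Its level was 0.669, 0.408 and 0.394 CPM in the 3 libraries with high sensory receptor counts and 0.518 CPM in IgG WT replicate 3. The day 7 median was 0.0764 CPM. Of those 3 libraries only anti-PD-1 WT replicate 4 was among the 2 farthest, and the relation without all 3 was not tested. H2-Ab1 and Ifng gave r = 0.41 and rho = 0.45 in the first experiment (adjusted permutation p = 0.0387 and 0.0242), but r fell to 0.21 without IgG day 1 replicate 4 and anti-PD-1 6 h replicate 5, so the relation rests on those tumors. At day 7 r was 0.23 (adjusted permutation p = 0.415). The difference between the Ciita and H2-Ab1 relations was not tested.

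**Figure D5:**
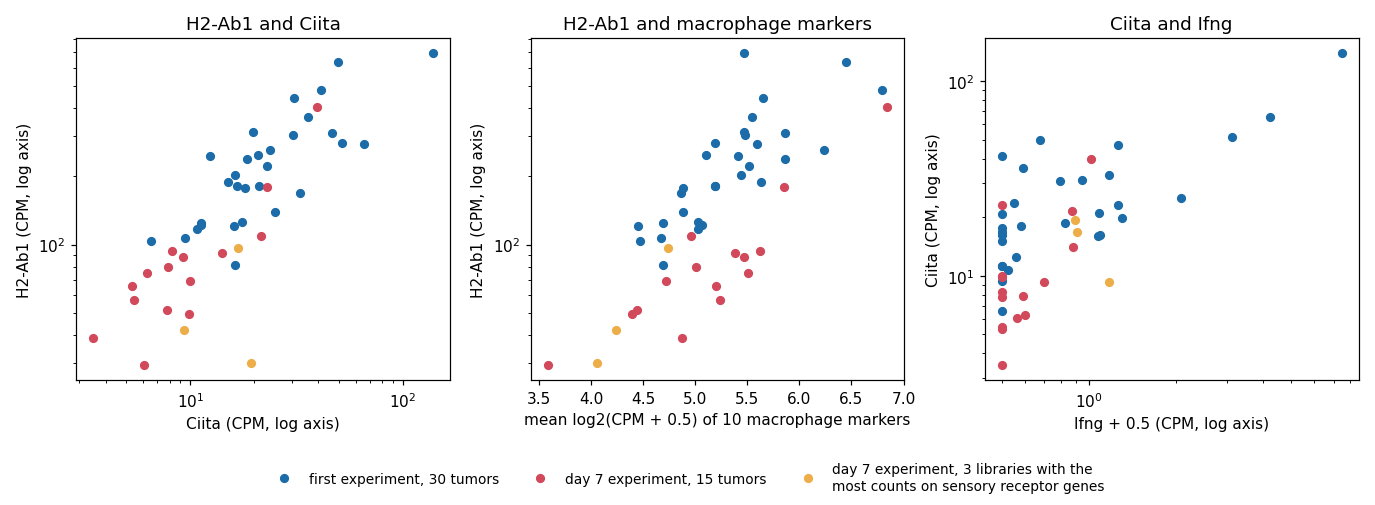
H2-Ab1 against Ciita, H2-Ab1 against the mean log2(CPM + 0.5) of 10 macrophage markers, and Ciita against Ifng + 0.5 (CPM), 1 point per tumor, gene axes logarithmic. Blue points are the 30 tumors of the first experiment, red points 15 day 7 tumors and yellow points the 3 day 7 libraries with the most sensory receptor counts, of which anti-PD-1 WT replicate 3 had 19.4 CPM of Ciita beside 30.2 CPM of H2-Ab1.

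The factors that hold CIITA at the promoter varied over a narrower range than Ciita. Rfx5 ranged from 14.8 to 28.3 CPM in the first experiment and from 15.5 to 26.4 CPM at day 7, Rfxank from 7.90 to 13.5 and from 8.39 to 14.8 CPM, and Nfya from 59.4 to 97.0 and from 52.2 to 105 CPM. Their Pearson r with the mean of the 7 members was 0.39 and 0.33 for Rfx5 and −0.32 and −0.02 for Nfya. Ctss, the protease cathepsin S that trims CD74 in the endosome, ranged from 50.4 to 258.5 CPM and from 22.2 to 187 CPM, with r of 0.91 and 0.90. H2-DMb2, the paralog of H2-DMb1, had r of 0.86 and 0.73. March1, the ubiquitin ligase that removes class II from the cell surface, had r of 0.80 and 0.84. Irf1 had r of 0.56 and 0.60. These r values are descriptions over libraries that share depth and composition.

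Among the 15102 genes with a mean of at least 1 CPM in the first experiment, the 10 most like the members' mean over 30 tumors were Naaa (r = 0.95), Sh3bp2 and Themis2 (0.94), Cd180 (0.93), Il10ra (0.92), Sp110, Ctss, Cd52 and Ly86 (0.91) and Cybb (0.90). Among 15892 such genes at day 7, over 18 tumors, they were Gbp9 (0.96), Mpeg1 and Epsti1 (0.95), Slfn8 and Fgl2 (0.93), H2-T23, Sp100, Clec2d and Cd36 (0.92) and Oas3 (0.91). No gene appeared in both lists, though Ctss, in place 7 of the first, stood at place 18 at day 7.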

How the data were processed

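The authors deposited 1 table of gene counts for 48 bulk tumor libraries, whole numbers per gene and not normalized. Per the labels and the study's methods, strand-specific libraries (paired reads) were trimmed with cutadapt 1.8.1 and aligned to mm10 with STAR 2.7.7a, and RSEM 1.3.0 estimated the read counts of GENCODE vM21 genes (55450 of its 55536 identifiers). The deposited table is named for featureCounts instead and holds whole numbers, so it may hold rounded RSEM estimates or direct counts. This bears on how reads of paralogs were treated.

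Groups came from the sample titles. The treatment field matched the title in 14 of 48 samples. Day 0 in a title was taken as 6 h, and day 7 of the second experiment comes from the study's text. Replicates were separate animals. Same-numbered replicates did not deviate together (median r −0.00532 over 65 pairs in the first experiment and −0.0134 over 36 at day 7), so numbers were not used as pairs. Replicate libraries differed by a chi-square per gene of 18.2 to 479, so none was a copy.

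The members and gene lists were chosen with earlier results of these data known. The experiments were fitted separately in edgeR 4.0.16 (R 4.3.3, limma 3.58.1): filterByExpr with a minimum count of 10, TMM, 1 coefficient per group and the quasi-likelihood test, with Benjamini-Hochberg adjustment over 26848 genes (30 libraries, 20 residual df) and 30837 genes (18 libraries, 12 df). CPM are counts scaled by TMM-adjusted library sizes. Named genes were all 7 members, other pathway genes called in a comparison or described beside the members, and the 10 genes most like them. The pathway genes named without a call (Ifng, Socs1, Rfx5, Rfxank, Nfya, Ctss, H2-DMb2, March1) were chosen for their roles after their values had been seen, and some genes of the lists are not reported here. Correlations used log2(CPM + 0.5) with permutation tests (numpy 2.4.6, scipy 1.17.1). Alternatives were DESeq2 1.42.0, its size factors, no filter, only the groups compared, a replicate block, covariates for sensory receptor counts and B cell markers, a pseudocount of 1, and leaving out the 3 libraries with the most sensory receptor counts or each tumor in turn. The fitting code was tested on simulated data. The p-values of edgeR and DESeq2 set a difference against the spread between the animals of a group. The permutation tests shuffled values over all tumors of an experiment, whatever their group.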

Additional observations from a re-analysis of the deposited data

How the results depend on the processing

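Of the 133 member fold changes, 62 exceeded their standard error. With that of Irf1 they make 63, and 63 kept their direction and their side of the threshold with DESeq2 size factors, 63 with the B cell covariate, 62 with the sensory receptor covariate, 62 with the replicate block, 62 with DESeq2, 59 with only the groups compared, 36 with no filter and 40 of 42 without the 3 libraries. The replicate block called 0 members in each of the 19 comparisons, and it changed no other call than that of Irf1. The 71 smaller fold changes turned sign in 58 of 512 values under the other alternatives and in 148 of 504 with 1 tumor left out. With no filter the members called numbered 4 for IgG against untreated at day 1, 6 for anti-PD-1 against IgG in day 7 WT tumors, 7 for IgG against untreated there, 1 for anti-PD-1 against IgG in KO tumors, and 3, 4 and 2 between genotypes in untreated, IgG and anti-PD-1 tumors. With only the groups compared they numbered 3 and 1 between genotypes in untreated and anti-PD-1 tumors, and DESeq2 gave 1 in the latter. The calls with no filter went with smaller standard errors. For H2-Eb1 between IgG and untreated day 7 WT tumors the SE was 0.23, against 0.66 with the filter. Without the 3 libraries the median was −1.80 between genotypes after anti-PD-1 and −0.75 for the genotype interaction, and for anti-PD-1 against IgG in WT tumors H2-Aa turned to 0.11 and H2-Eb1 to 0.14. Without the 3 libraries, no anti-PD-1 value of WT tumors rests on more than 1 tumor.

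With 1 tumor left out at a time, 0 to 4 members were called for anti-PD-1 against IgG in day 7 WT tumors, and 0 in every other comparison. Median log2 fold changes ranged from −0.29 to 0.97 for IgG against untreated at 6 h, from 0.10 to 0.68 at day 3 and from 0.42 to 1.91 in day 7 WT tumors. They ranged from −1.44 to 0.079 between genotypes in IgG tumors, from −1.12 to 0.19 in anti-PD-1 tumors and from −0.80 to 1.31 for the genotype interaction. Ciita for anti-PD-1 against IgG at 6 h ranged from −0.045 to 1.52. For anti-PD-1 against IgG in WT tumors H2-Aa ranged from −1.89 to 0.27, H2-Ab1 from −2.28 to 0.016 and H2-Eb1 from −1.94 to 0.58, each turning without IgG replicate 3. Between genotypes in IgG tumors, the same tumor turned Ciita (−1.28 to 0.27), H2-Aa (−1.50 to 0.11), H2-Eb1 (−1.66 to 0.30) and H2-DMb1 (−1.20 to 0.079). Between genotypes after anti-PD-1, leaving out WT replicate 2 turned H2-Aa (−1.10 to 0.28), H2-Ab1 (−1.12 to 0.46), H2-Eb1 (−1.25 to 0.19) and Cd74 (−1.22 to 0.51). No relation changed sides of 0.05 with a pseudocount of 1. Apart from the fewer tumors in a fit, the cause was not tested. Depth does not limit the members, whose lowest count was 81, but it limits Ifng, which had 0 counts in some libraries.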
